A study of Mus musculus with 8 samples.

Results

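The keratin (Krt), small proline-rich protein (Sprr) and late cornified envelope (Lce) genes were followed in cultured mouse spermatogonia, the progenitor cells of the male germ line. Members were all genes of the deposited count table whose name is Krt followed by a number, or begins with Sprr or Lce. This gave 93 of 55421 genes, 55 of them Krt, 17 Sprr and 21 Lce. The families were chosen by the measured levels of a pair of members, because Sprr3 was much higher and Lce1g much lower in cells given retinoic acid under nutrient restriction than in vehicle cells, so values and counts of calls in that contrast are given below as a description only, with no p for any member.

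RNA-seq was made from spermatogonial stem cell cultures of the C57BL/6XDBA/2 background, an F1 hybrid, started from testes of 6-day-old pups and grown on irradiated fibroblasts of CF1 mice. The 4 conditions, with 2 libraries each, lasted 2 days. Veh cells had complete medium and vehicle, RA cells had complete medium and 100 nM retinoic acid, NR cells (EBSS in the labels) had a nutrient-restricted medium of 10% complete medium and 90% Earle's balanced salt solution, and NRRA cells (RA_EBSS in the labels) had that medium with 100 nM retinoic acid. All 4 conditions shared the strain and the feeder layer, whose RNA can be in the libraries, and the study describes the 2 libraries of a condition as independent biological replicates. Total counts ran from 19261333 to 30023585 per library.

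Keratins are the intermediate filament proteins of epithelia. A filament is built from pairs of an acidic type I keratin and a basic type II keratin, and the pair changes with the tissue, from Krt8 and Krt18 in simple epithelia to Krt5 and Krt14 in the basal epidermis and Krt1 and Krt10 above it. Sprr and Lce proteins are short, repetitive proteins that transglutaminases cross-link, with involucrin and loricrin, into the cornified envelope of the outermost epidermal cells. Their genes lie side by side in the epidermal differentiation complex on mouse chromosome 3.

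A member was counted as detected where a library held 10 or more of its reads. Of the 93 members, 31 were detected, namely 17 Krt, 9 Sprr and 5 Lce. A further 51 members had a highest count of 1 to 9, and 11 had no read in any library. The number detected was 21 in Veh, 24 under RA, 20 under NR, and 20 under NRRA. For the Lce genes alone it was 4 in Veh, 5 under RA, 1 under NR, and 0 under NRRA, while for the Sprr genes it was 5, 7, 5 and 8 in the same order. Just inside the limit lay Krt26, with a highest count of 10, and Krt40 and Krt87, each with 13. Just outside lay Krt17 and Sprr1b, each with a highest count of 9, and Krt28 and Krt78, each with 8.

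Among the keratin classes, only the simple epithelial one was detected in full. All 5 simple epithelial keratins (Krt7, Krt8, Krt18, Krt19 and Krt20) were detected, against 0 of the 3 basal epidermal keratins, whose highest count was 2, and 0 of the 4 stress-induced ones, whose highest count was 9. Among 5 suprabasal keratins only Krt10 was detected, and its usual partner Krt1 had at most 1 read in a library. Of 5 mucosal and corneal keratins Krt12 and Krt13 were detected, and Krt4, the partner of Krt13, had at most 1 read. The inner root sheath and companion layer gave 3 of 9 (Krt26, Krt27 and Krt75) and the hair shaft 2 of 15 (Krt40 and Krt87), each with at most 30 reads in a library. By type, 12 of 28 type I and 5 of 26 type II keratins were detected. Summed over their genes, type I keratins stood at 16.7 ± 1.2 CPM (read counts scaled to a common library size) per kilobase of exon in Veh and type II keratins at 2.6 ± 0.31 (SD, n = 2).

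**Figure D1:**
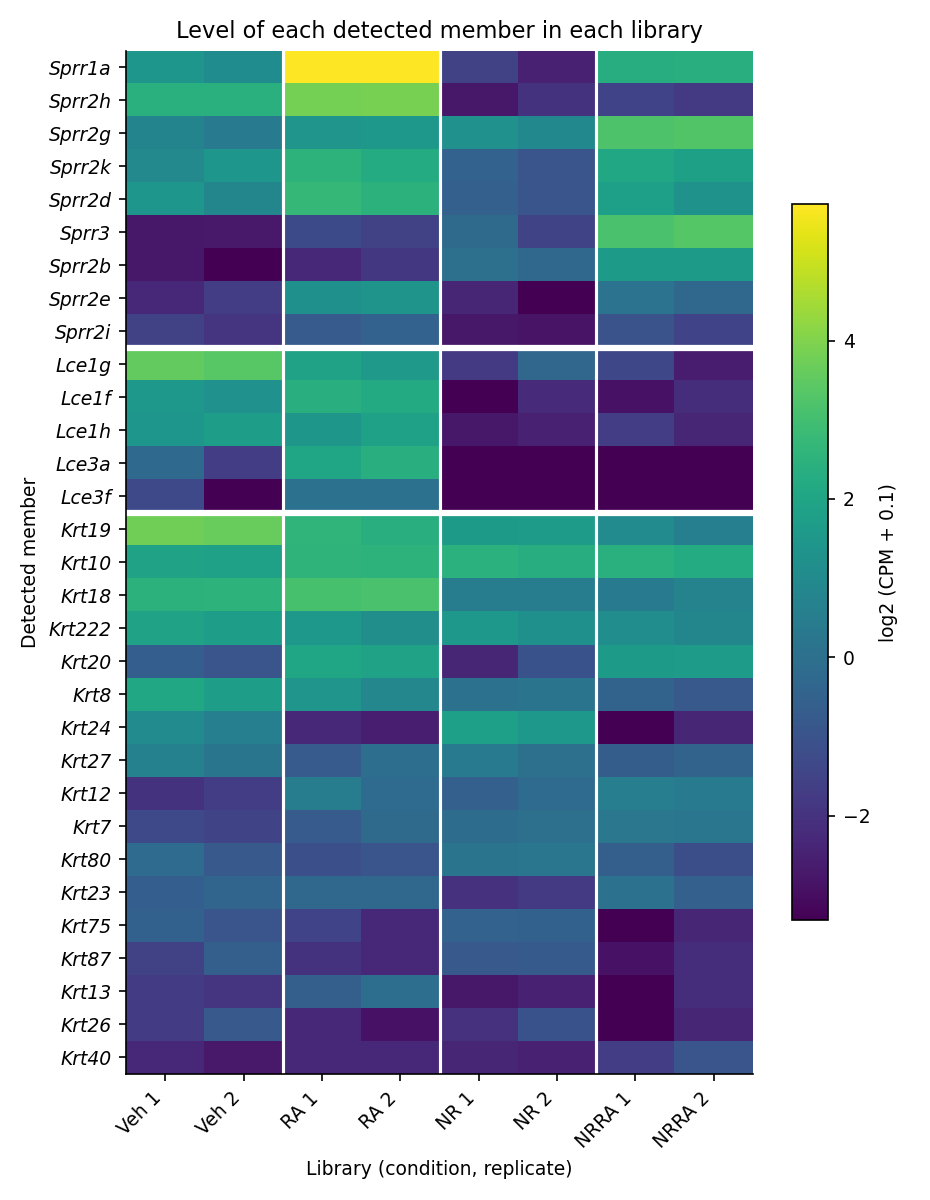
Level of the 31 detected members in each of the 8 libraries, as log2 of CPM plus 0.1, with the families separated by white bars and the conditions by white lines. Sprr1a is brightest in the RA libraries, Sprr3 in the NRRA libraries, and the 5 Lce genes are dark in the NR and NRRA libraries.

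Each family had its own pattern over the 4 conditions. Summed over all 17 Sprr genes, the level was 14 ± 0.75 CPM in Veh, 84.4 ± 0.81 under RA, 4.75 ± 1.19 under NR, and 34.8 ± 0.38 under NRRA (SD, n = 2). The 21 Lce genes summed to 17.2 ± 1.25 CPM in Veh and 17.3 ± 0.26 in RA, but only to 0.624 ± 0.41 in NR and 0.518 ± 0.28 in NRRA. The 55 Krt genes moved least, from 37.2 ± 2.9 CPM in Veh and 34.4 ± 2.1 in RA to 23.0 ± 0.64 in NR and 19.4 ± 0.53 in NRRA. No library of NR or NRRA reached the Lce level of a Veh or RA library, and the Sprr sums of the 4 conditions did not overlap. The sums include Sprr3 and Lce1g, through which the families were chosen. The gap between NRRA and Veh is therefore in part given by the choice, Lce1g giving 64.2% of the Lce sum in Veh. These sums are descriptions, and each hides a change of leading gene: Sprr2h gave 37.1% of the Sprr sum in Veh, Sprr1a gave 62.3% under RA, Sprr2g gave 42.6% under NR, and Sprr3 gave 26.9% under NRRA.

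**Figure D2:**
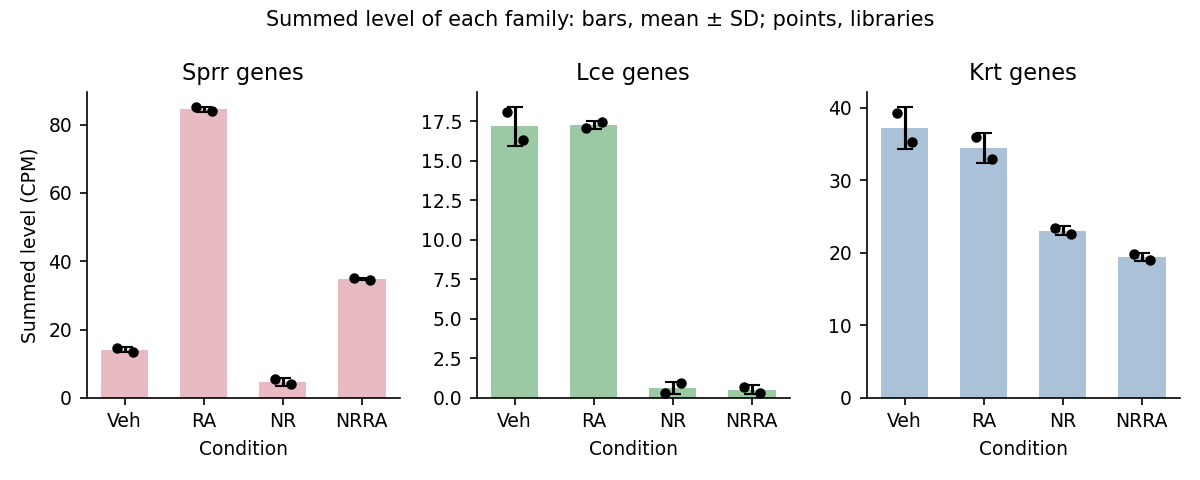
Summed CPM of the 17 Sprr, 21 Lce and 55 Krt genes in each condition, with bars for the mean, error bars for the SD and points for the 2 libraries. The Sprr sum is highest in RA at 84.4 CPM, and the Lce sum is under 1 CPM in each library of NR and NRRA.

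Levels of fibroblast collagen genes also moved with the medium. The 10 fibroblast markers, led by collagen genes, summed to between 10290 and 10480 CPM in Veh and 8184 and 8843 under RA, against 21750 and 22910 under NR, and 19210 and 19800 under NRRA. In NR against Veh 5 of the 10 were called higher and 0 lower, where 5.33% and 2.96% of all tested genes were called higher and lower. S100a4, another marker of the list, went the other way, at 3.22 and 3.07 CPM in Veh, 1.99 and 1.98 under RA, 1.93 and 1.56 under NR, and 0.465 and 0.771 under NRRA. The 8 germ cell markers summed to between 967.6 and 1227 CPM in every library. Of these 8, 0 were called in NR against Veh, 2 were called lower in RA against Veh (Id4 and Zbtb16), and 3 were called lower in NRRA against NR and against Veh (Etv5, Gfra1 and Zbtb16). Beside them, 2.75% of all tested genes were called lower in RA against Veh, 4.14% in NRRA against NR and 6.02% in NRRA against Veh. The part of either in the results below was not tested, and in bulk libraries fewer cells of a type and less RNA per cell cannot be told apart.

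Of the 93 members, 29 (15 Krt, 9 Sprr, 5 Lce) had enough reads for edgeR's quasi-likelihood test, which was fitted to 20477 genes. A gene was called where the Benjamini-Hochberg adjusted p was under 0.05 and the fold at least 2. Since a low gene passes the filter through the condition in which it is high, the counts of called members below describe the 29 and are not evidence about the families. Sprr3 and Lce1g stand in these counts, but their values in comparisons that share a library with NRRA against Veh are given with no p. Krt26 and Krt40 were detected but not tested.

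RA alone raised Sprr genes. In RA against Veh, 12 of the 29 tested members were called higher and 4 lower, where 4.74% and 2.75% of all tested genes were called higher and lower, 7.49% in all. The higher ones were 6 Sprr genes (Sprr1a, Sprr2d, Sprr2e, Sprr2h, Sprr2i and Sprr2k), 2 Lce genes (Lce3a and Lce3f) and 4 keratins (Krt7, Krt12, Krt13 and Krt20). The lower ones were Krt19, Krt24, Krt75 and Lce1g. The median log2 fold change was 1.48 over the 9 tested Sprr genes and -0.54 over the 15 tested Krt genes, against -0.02 over all tested genes.

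Sprr1a (ENSMUSG00000050359, chr3:92483952-92485895, GRCm38, minus strand), a cross-linked precursor of the envelope that is also known from injured tissues, had the highest level per kilobase of exon of all members, 18.6 CPM per kilobase on average over the conditions. Its level was 2.63 and 2.03 CPM in Veh, 52.7 and 52.6 under RA, 0.241 and 0.0759 under NR, and 4.90 and 5.01 under NRRA. The 4 conditions did not overlap, with RA far above the rest and NR lowest. RA raised Sprr1a 22.5-fold in complete medium (log2 4.49, SE 0.12, edgeR adjusted p = 1.01e-20) and 32.2-fold in restricted medium (NRRA against NR, log2 5.01, SE 0.30, adjusted p = 2.64e-13). Nutrient restriction lowered it 15.2-fold without RA (log2 -3.93, SE 0.39, adjusted p = 3.81e-09) and 10.6-fold with RA (NRRA against RA, log2 -3.41, SE 0.09, adjusted p = 6.01e-21). The RA responses in the 2 media differed by 0.52 on the log2 scale (SE 0.49, interaction adjusted p = 0.56).

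Sprr2h, the next highest member per kilobase, fell further with restriction than any other tested Sprr gene. Its level was 5.20 and 5.21 CPM in Veh, 14.1 and 14.4 under RA, 0.0482 and 0.152 under NR, and 0.250 and 0.193 under NRRA, so that both restricted conditions lay far below both complete ones. RA raised it 2.74-fold in complete medium (log2 1.46, SE 0.13, edgeR adjusted p = 4.88e-10), and restriction lowered it 46.8-fold (log2 -5.55, SE 0.33, adjusted p = 1.92e-13). With RA present, restriction lowered it 63.5-fold (NRRA against RA, log2 -5.99, SE 0.21, adjusted p = 1.88e-18). In restricted medium the RA response was 1.02 on the log2 scale (SE 0.67) and was not called.

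Sprr2d and Sprr2k both rose with RA and fell with restriction alone. With RA present, NRRA against RA, Sprr2d was called lower and Sprr2k was not called. Sprr2d stood at 2.58 and 1.67 CPM in Veh, 6.42 and 5.48 under RA, 0.578 and 0.418 under NR, and 3.32 and 2.41 under NRRA. Sprr2k stood at 1.83 and 2.61 CPM in Veh, 5.61 and 4.65 under RA, 0.626 and 0.418 under NR, and 4.18 and 3.40 under NRRA. For both, each RA library was above each Veh library and each NR library below it. RA raised Sprr2d 2.76-fold in complete medium (adjusted p = 2.31e-06) and 5.77-fold in restricted medium (adjusted p = 1.50e-07), while restriction alone lowered it 4.33-fold (adjusted p = 1.55e-05). For Sprr2k the RA response was 2.29-fold in complete medium (adjusted p = 3.08e-05), or 0.98 on the log2 scale and so under the fold limit without the first Veh library, and 7.34-fold in restricted medium (adjusted p = 2.73e-09). Sprr2k thus gained more from RA under restriction, with an interaction of 1.68 on the log2 scale (SE 0.38, edgeR adjusted p = 0.00288), a call that was lost without the second NR library (1.35, adjusted p = 0.0683).

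Sprr2e and Sprr2i, lower in all conditions, were also raised by RA. Sprr2e had 2 and 4 reads in Veh, 44 and 71 under RA, 2 and 0 under NR, and 28 and 22 under NRRA. RA raised it 15.1-fold in complete medium (log2 3.91, SE 0.46, edgeR adjusted p = 1.07e-07), and NRRA was 19.9 times NR by pooled reads (exact 95% interval 5.23 to 169, counting error only). Sprr2i had 5 and 3 reads in Veh, 10 and 18 under RA, 1 and 1 under NR, and 11 and 8 under NRRA. Its call in RA against Veh (2.79-fold, adjusted p = 0.0326) was lost without any 1 of the Veh or RA libraries or the first NRRA library (adjusted p from 0.0509 to 0.204).

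Sprr2g and Sprr2b departed from the other Sprr2 genes in restricted medium. Sprr2g, which the annotation lists as a polymorphic pseudogene, stood at 1.58 and 1.25 CPM in Veh, 2.55 and 2.74 under RA, 2.26 and 1.78 under NR, and 9.08 and 9.44 under NRRA. It was thus highest under the combined treatment, and NR was not below Veh. RA raised it 4.62-fold in restricted medium (log2 2.21, SE 0.16, edgeR adjusted p = 6.86e-12), while in complete medium the change of 1.87-fold stayed under the limit of 2. The interaction was 1.31 on the log2 scale (SE 0.30, adjusted p = 0.00317), and without the first Veh library it was no longer called (1.09, adjusted p = 0.0603).

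Sprr2b had 1 and 0 reads in Veh, 2 and 5 under RA, 19 and 19 under NR, and 83 and 91 under NRRA. It rose with restriction alone, to 31.8 times the pooled Veh reads (exact 95% interval 5.37 to 1288), where Sprr1a, Sprr2d, Sprr2h and Sprr2k fell. RA raised it a further 3.62-fold in restricted medium (log2 1.86, SE 0.26, edgeR adjusted p = 1.71e-06). NRRA was 19.7-fold above RA (log2 4.30, SE 0.37, adjusted p = 3.58e-10).

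Because most Sprr2 genes rose with RA, their promoters were compared. RefSeq windows from 250 bases before to 50 after the start site (build GRCm38.p6) were held for 12 of the 14 detected Sprr and Lce members, and not for Sprr2g and Lce1f. The letters TGANTCA, the core recognised by the AP-1 factors that act on many epidermal genes, occurred on either strand in 7 of these 12 windows (58.3%), in 8 of the 25 detected members with a window (32.0%) and in 9.0% of 27025 genes with a window. They began 193 bases before the start in Sprr2d, Sprr2e and Sprr2i, 195 in Sprr2b, 198 in Sprr2h, and 196 and 182 in Sprr2k. Sprr1a held a pair, 146 and 116 bases before its start. The Sprr2 windows are related, with 61.4% to 88.0% of aligned upstream columns identical between any pair, so their matches are not separate cases. Members that were not detected were not compared, and a link of the match to the RA response was not tested. Around each match the upstream sequence, with the match in capitals, read as follows on the strand of the gene.
Sprr1a, chr3:92485951-92486067, minus strand: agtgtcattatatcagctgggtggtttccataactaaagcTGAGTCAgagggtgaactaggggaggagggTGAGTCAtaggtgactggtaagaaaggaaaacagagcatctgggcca
Sprr2d, chr3:92338907-92339003, plus strand: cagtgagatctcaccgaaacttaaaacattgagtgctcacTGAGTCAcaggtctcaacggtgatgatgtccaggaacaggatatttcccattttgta
Sprr2e, chr3:92351910-92352006, plus strand: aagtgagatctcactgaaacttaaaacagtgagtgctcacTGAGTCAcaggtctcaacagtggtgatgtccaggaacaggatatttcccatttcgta
Sprr2i, chr3:92407758-92407854, plus strand: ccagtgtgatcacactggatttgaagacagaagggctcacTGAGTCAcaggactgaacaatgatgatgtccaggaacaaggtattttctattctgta
Sprr2h, chr3:92385447-92385543, plus strand: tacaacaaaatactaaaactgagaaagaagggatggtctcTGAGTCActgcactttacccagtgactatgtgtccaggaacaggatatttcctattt
Sprr2k, chr3:92432346-92432446, plus strand: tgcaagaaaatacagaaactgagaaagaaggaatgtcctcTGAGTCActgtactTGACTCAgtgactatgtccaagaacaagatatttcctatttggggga
Sprr2b, chr3:92316470-92316566, plus strand: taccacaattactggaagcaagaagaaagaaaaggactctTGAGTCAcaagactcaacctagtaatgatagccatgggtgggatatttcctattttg

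The upstream 250 bases of Sprr2d and Sprr2e were identical in 88.0% of aligned columns and those of Sprr2h and Sprr2k in 80.6%. In NRRA, Sprr2h and Sprr2k stood at 0.221 ± 0.041 and 3.79 ± 0.55 CPM (SD, n = 2). A link of the match, or of the likeness of the promoters, to the response to restriction was not tested. Searched on both strands, the letters AGGTCA, a single arm of a retinoid receptor element, were in 0 of the 12 windows, in 6 of the 25 (24%) and in 18.1% of all genes, and its direct repeats of this arm spaced by 5 and by 2 bases, which contain it, were in 0 of the 25 windows and in 3 and 2 genes of all. A match describes the letters in the window and does not show that a factor binds. Only the exact letters were searched, and the repeats are so rare over all genes that their absence from 25 windows says little.

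Sprr3 (ENSMUSG00000045539, chr3:92456502-92458720, GRCm38, minus strand), which encodes an envelope protein of oral and oesophageal epithelium, was one of the genes through which the families were chosen. It had 1 and 1 reads in Veh, 6 and 7 under RA, 16 and 7 under NR, and 243 and 312 under NRRA. Both NRRA libraries were thus far above all 6 others, and no single treatment came near them. By pooled reads NRRA was 185 times Veh (exact 95% interval 50.9 to 1530), NR was 9.62 times Veh (2.38 to 84.1) and RA was 5.28 times Veh (1.2 to 48.2), all descriptions that cover counting error only. Its call in NR against Veh was lost without the first NR library (log2 2.30). In NR against RA, which shares no library with the contrast used for the choice, Sprr3 differed by 0.85 on the log2 scale (SE 0.53, edgeR adjusted p = 0.19). The 250 bases before its start site held no TGANTCA and are given for comparison with the sequences above.
Sprr3, chr3:92458721-92458970, minus strand: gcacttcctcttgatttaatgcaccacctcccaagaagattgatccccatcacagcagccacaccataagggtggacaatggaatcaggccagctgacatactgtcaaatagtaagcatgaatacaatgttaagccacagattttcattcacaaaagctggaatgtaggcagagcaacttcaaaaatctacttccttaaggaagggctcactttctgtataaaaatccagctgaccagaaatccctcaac

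Restriction took away the Lce transcripts. All 5 tested Lce genes (Lce1f, Lce1g, Lce1h, Lce3a and Lce3f) were called lower in NR against Veh, and none higher. Over the families 4 of the 29 tested members were called higher and 13 lower, where 5.33% and 2.96% of all tested genes were called higher and lower, 8.29% in all. The other lower members were Sprr1a, Sprr2d, Sprr2h and Sprr2k together with Krt8, Krt18, Krt19 and Krt23, and the higher ones were Sprr2b, Sprr3, Krt7 and Krt12. The median log2 fold change was -2.10 over the 9 Sprr genes and -0.25 over the 15 Krt genes, against 0.01 over all tested genes. For Lce3f, with 6 and 0 reads in Veh, the call was lost without the first Veh library or any 1 of the RA or NR libraries (adjusted p from 0.0584 to 1).

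Lce1g (ENSMUSG00000027919, chr3:92750148-92752338, GRCm38, minus strand), the other gene through which the families were chosen, gave 64.2% of the Lce sum in Veh. Its level was 11.7 and 10.4 CPM in Veh, 3.62 and 2.81 under RA, 0.193 and 0.683 under NR, and 0.286 and 0.0642 under NRRA. Both treatments thus lay below Veh, and NRRA was lowest, though its libraries overlapped those of NR. As descriptions, the fold below Veh was 3.5 under RA, 23.4 under NR and 63.3 under NRRA. In NR against RA, which shares no library with the contrast used for the choice, Lce1g was 6.70-fold lower (log2 -2.74, SE 0.34, edgeR adjusted p = 1.35e-07).

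Its neighbours Lce1f and Lce1h lost reads with restriction but not with RA. Lce1f had 55 and 44 reads in Veh, 98 and 130 under RA, 0 and 3 under NR, and 1 and 4 under NRRA. Lce1h had 52 and 61 reads in Veh, 52 and 102 under RA, 1 and 2 under NR, and 6 and 3 under NRRA. In both, no restricted library came near a library in complete medium. By pooled reads Veh was 39.5 times NR for Lce1f (exact 95% interval 13.1 to 195) and 45 times NR for Lce1h (15.0 to 222). RA against Veh gave 0.91 on the log2 scale for Lce1f (SE 0.21) and 0.13 for Lce1h (SE 0.22), and neither was called. Lce1g and Lce1h have much alike promoters, with 84.5% of aligned columns identical, and the upstream parts are shown because the 2 genes differed in RA. Neither holds TGANTCA.
Lce1g, chr3:92752339-92752588, minus strand: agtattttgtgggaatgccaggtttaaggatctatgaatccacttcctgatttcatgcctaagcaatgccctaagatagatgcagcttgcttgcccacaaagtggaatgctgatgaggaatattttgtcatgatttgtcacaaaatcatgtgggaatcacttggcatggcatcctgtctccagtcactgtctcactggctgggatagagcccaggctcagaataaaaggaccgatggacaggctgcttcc
Lce1h, chr3:92765066-92765315, minus strand: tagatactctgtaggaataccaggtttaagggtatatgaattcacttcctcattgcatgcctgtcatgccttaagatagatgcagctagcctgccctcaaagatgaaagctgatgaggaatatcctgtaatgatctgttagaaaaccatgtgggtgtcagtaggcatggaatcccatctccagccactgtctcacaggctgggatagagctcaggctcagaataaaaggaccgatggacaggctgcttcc

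Lce3a and Lce3f, of the group of Lce genes that rises in wounded and psoriatic skin, were the Lce genes called higher in RA against Veh. Lce3a had 15 and 4 reads in Veh, 76 and 148 in RA, and 0 in each NR and NRRA library. Lce3f had 6 and 0 reads in Veh, 19 and 27 in RA, and 0 in each NR and NRRA library, and shared 43.0% of its 100-base windows with other Lce3 genes, so that its reads are uncertain. RA raised Lce3a 9.39-fold (log2 3.23, SE 0.34, edgeR adjusted p = 3.06e-08) and Lce3f 6.07-fold (log2 2.6, SE 0.63, adjusted p = 0.00158). DESeq2 did not call Lce3f in RA against Veh (adjusted p = 0.737), NR against Veh (0.571), NRRA against RA (0.294) or NR against RA (0.297). Against a floor of 3 reads over the 2 libraries at 0, Lce3a was at least 7.57-fold lower in NR than in Veh and at least 91.1-fold lower in NRRA than in RA. For Lce3f, NRRA was at least 18.7-fold below RA. No read of either gene was seen with RA in restricted medium, where 8 of the 9 tested Sprr genes were called higher.

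**Figure D3:**
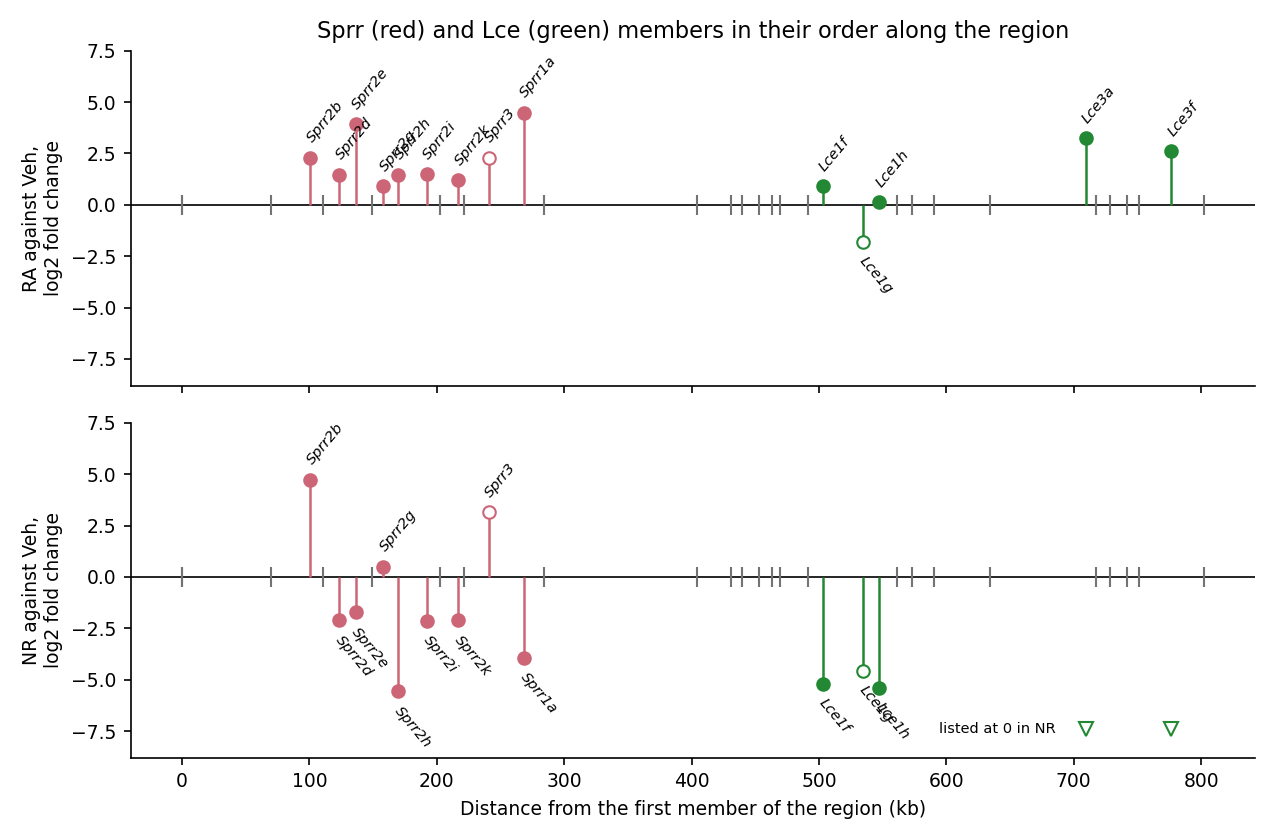
Log2 fold change of each tested Sprr and Lce member in RA against Veh (upper) and NR against Veh (lower), by distance in kilobases from the first member of the region. Grey ticks are members not tested, open circles Sprr3 and Lce1g and triangles genes with 0 reads in NR, fitted values of genes with few reads depend on the prior count, and neighbours such as Sprr2g and Sprr2h, or Sprr3 and Sprr1a, stand on opposite sides of 0 in NR.

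The Sprr and Lce members lie within 803 kilobases of chromosome 3 (chr3:92215799-93019060, GRCm38). The region holds 38 members and 21 other genes, 9 of them protein-coding, of which 3 reached 10 reads in a library. Ivl, encoding involucrin, lies between the Sprr and the Lce genes, with 467 and 471 reads in Veh, 921 and 1399 under RA, 58 and 53 under NR, and 134 and 154 under NRRA. It rose in RA (log2 1.00, SE 0.07, edgeR adjusted p = 2.90e-11) and fell in NR (log2 -3.33, SE 0.12, adjusted p = 8.70e-18), as Sprr1a and Sprr2d did. Crct1, a cysteine-rich gene near the far end beyond Lce3f, fell in NR from 106 and 69 reads in Veh to 4 and 7 (log2 -4.22, SE 0.34, adjusted p = 1.10e-10). Gm9774, between Sprr2i and Sprr2k, was not called in any comparison, with 37 to 90 reads in every library.

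The keratins of simple epithelia changed separately. Krt19, a type I keratin without a fixed partner, had the highest keratin level per kilobase of exon in Veh (6.89 CPM per kilobase) and fell with each treatment, from 13.5 and 12.1 CPM in Veh to 6.01 and 5.13 under RA, 2.94 and 3.0 under NR, and 1.97 and 1.41 under NRRA. The conditions did not overlap. RA lowered it 2.32-fold (log2 -1.21, SE 0.13, edgeR adjusted p = 2.78e-08) and restriction 4.30-fold (log2 -2.10, SE 0.15, adjusted p = 5.31e-12).

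Krt18 and Krt8, the pair of simple epithelia named above, parted in RA. Krt18 stood at 5.5 and 5.63 CPM in Veh, 8.51 and 8.63 under RA, 1.30 and 1.33 under NR, and 1.18 and 1.54 under NRRA. Krt8 stood at 4.16 and 3.28 CPM in Veh, 2.50 and 1.7 under RA, 0.964 and 1.03 under NR, and 0.643 and 0.482 under NRRA. In RA, therefore, Krt18 was above and Krt8 below each Veh library, by 0.63 (SE 0.13) and -0.87 (SE 0.22) on the log2 scale, neither reaching a fold of 2. Restriction lowered Krt18 4.21-fold (log2 -2.07, SE 0.19, adjusted p = 1.50e-09) and Krt8 3.72-fold (log2 -1.90, SE 0.26, adjusted p = 9.55e-07). Per kilobase of exon, Krt18 stood at 3.87 CPM and Krt8 at 1.90 in Veh, and at 5.97 and 1.07 in RA. Krt8 shared 16.9% of its 100-base windows with its pseudogene Krt8-ps.

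Krt20 and Krt7, keratins of gut and of ductal epithelia, rose. Krt20 followed RA in both media, with 0.545 and 0.417 CPM in Veh, 3.93 and 3.57 under RA, 0.0964 and 0.380 under NR, and 2.97 and 2.99 under NRRA. Both conditions with RA were above both without it, by 7.65-fold in complete medium (log2 2.94, SE 0.30, edgeR adjusted p = 1.13e-08) and 11.5-fold in restricted medium (log2 3.52, SE 0.33, adjusted p = 2.13e-09). Krt7 had 6 and 5 reads in Veh, 10 and 22 under RA, 17 and 24 under NR, and 31 and 33 under NRRA. Restriction raised it 3.08-fold (adjusted p = 0.00516, but 0.0509 in DESeq2). Its call in RA against Veh (2.33-fold, adjusted p = 0.0432) was lost without any 1 library other than the first RA library (adjusted p from 0.0502 to 0.337).

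**Figure D4:**
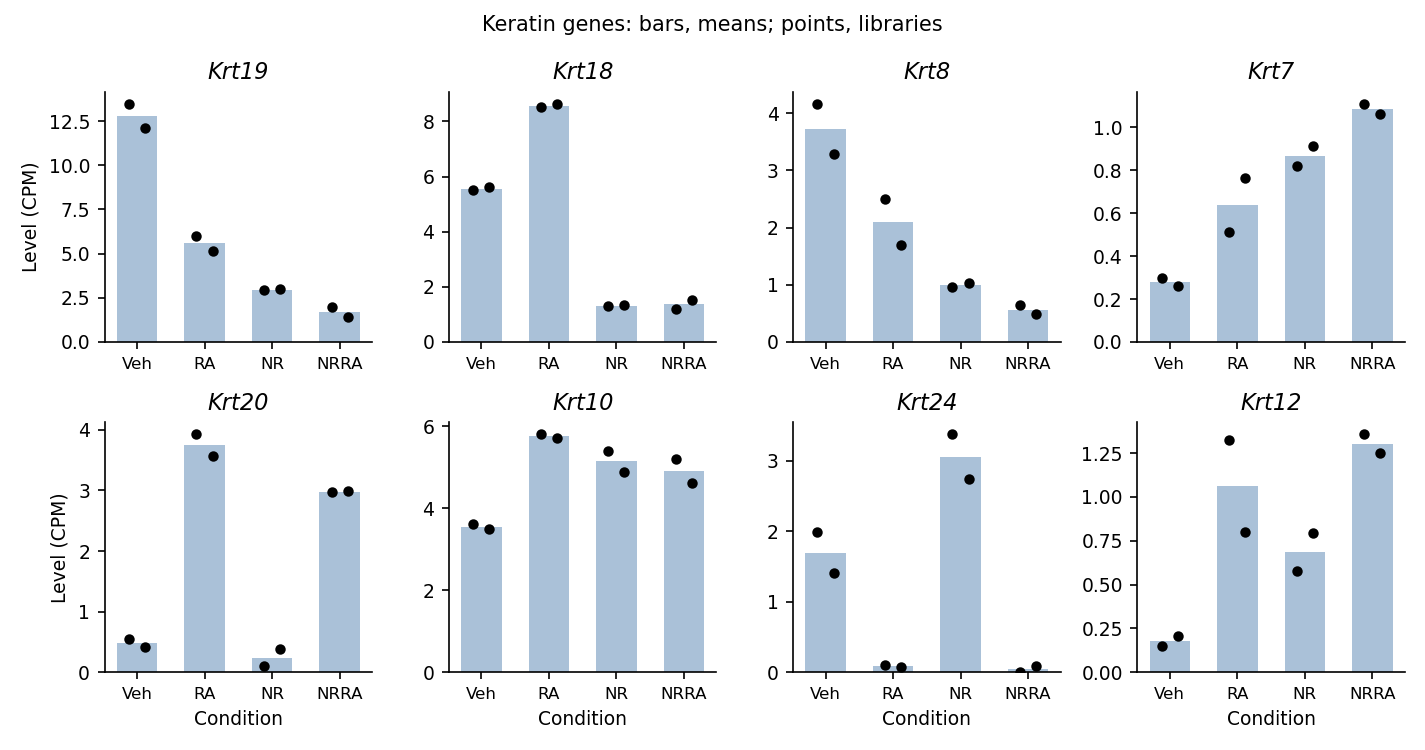
CPM of 8 keratin genes in each condition, with bars for the mean and points for the 2 libraries, each panel on its own linear axis from 0. Krt20 is high and Krt24 low in both conditions with RA, while Krt19, Krt18 and Krt8 are low in both restricted conditions.

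Krt24, a type I keratin, was the mirror of Krt20. It had 40 and 27 reads in Veh, 2 and 2 under RA, 70 and 72 under NR, and 0 and 3 under NRRA. All 4 libraries with RA held at most 3 reads and all 4 without it at least 27. RA lowered it 19.4-fold in complete medium (log2 -4.28, SE 0.54, edgeR adjusted p = 3.31e-07), and in restricted medium NR was 59.4 times NRRA by pooled reads (exact 95% interval 19.9 to 292). Krt75, a companion layer keratin, also lost reads to RA, with 12 and 8 in Veh, 5 and 3 under RA, 13 and 16 under NR, and 0 and 3 under NRRA. NR was 12.1 times NRRA for Krt75 (exact 95% interval 3.76 to 62.3), while its call in RA against Veh (adjusted p = 0.0456) was lost without either Veh library, either NR library or the second RA library (adjusted p from 0.0615 to 0.376).

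Krt10 varied little, at 3.62 and 3.49 CPM in Veh, 5.81 and 5.72 under RA, 5.40 and 4.90 under NR, and 5.22 and 4.62 under NRRA. All 6 treated libraries were above both Veh libraries, by no more than 1.62-fold between means.

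Krt12, a corneal keratin, had 3 and 4 reads in Veh, 26 and 23 under RA, 12 and 21 under NR, and 38 and 39 under NRRA. It was called higher in RA (5.61-fold, adjusted p = 0.000261) and in NR (3.85-fold, adjusted p = 0.00537), the latter call lost without the first Veh library or the second NR library (adjusted p = 0.0503 and 0.0678). However, 54.4% of its exon bases lie opposite A830036E02Rik, which had 3 and 8 reads in Veh, 30 and 17 under RA, 18 and 34 under NR, and 40 and 43 under NRRA. The libraries were made with strand selection, but the strand setting of the counting is not given in the sources used here, and whether the reads of the 2 genes were counted apart is not known. Krt13 had 4 and 3 reads in Veh, 11 and 25 under RA, 1 and 2 under NR, and 0 and 4 under NRRA. RA was 11.7 times NR for Krt13 (exact 95% interval 3.68 to 59.2), while its call in RA against Veh was lost without the second Veh or the second RA library (adjusted p = 0.0572 and 0.148).

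Krt23, Krt80, Krt87, Krt27 and Krt222 stayed low, with highest counts of 27, 28, 13, 30 and 72. Krt23 was 3.52-fold lower in NR than in Veh (adjusted p = 0.0104, and from 0.0530 to 0.0705 without the second Veh library or either NR library) and 4.39-fold higher in NRRA than in NR (adjusted p = 0.00107). Krt80 and Krt87 were called lower in NRRA than in NR, by 2.26-fold and 5.51-fold (adjusted p = 0.0125 and 0.00332). The first call was lost without the second NR or the second NRRA library (0.0849 and 0.163) and the other without the first NRRA library (0.0649). Krt27 was called only in NRRA against Veh, where it fell under the fold limit without the first Veh or the first NRRA library (log2 -0.81 and -0.98) and was not called by DESeq2, and Krt222, a keratin-like gene, in no comparison.

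With RA in restricted medium, NRRA against NR, 10 of the 29 tested members were called higher and 4 lower, where 4.56% and 4.14% of all tested genes were called higher and lower, 8.70% in all. The higher ones were Krt20, Krt23 and the 8 Sprr genes other than Sprr2h. No Lce gene was called, all 5 having at most 18 reads in each restricted library. NRRA against NR and RA against Veh share no library. Sprr1a, Sprr2d, Sprr2e, Sprr2i, Sprr2k and Krt20 were called higher in both, 6 of 10 and 6 of 12, and Krt24 and Krt75 lower in both, 2 of 4 each. Over all tested genes 474 (2.31%) were called higher in both, of 933 and 970, and 388 (1.89%) lower in both, of 848 and 564. For Sprr2i the call in NRRA against NR was lost without the second NR or the first NRRA library (adjusted p = 0.0852 and 0.0686).

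**Figure D5:**
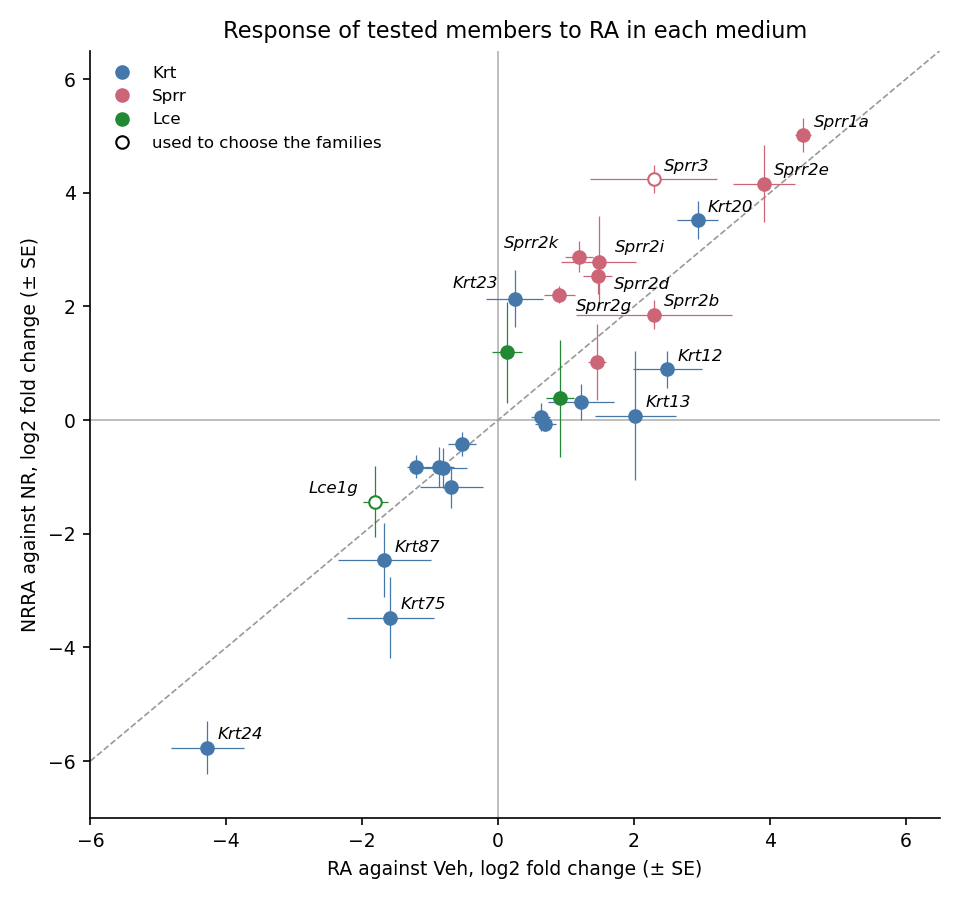
Log2 fold change to RA in complete medium (horizontal) and in restricted medium (vertical) of 27 tested members, with SE bars, colours for the families, open circles for Sprr3 and Lce1g, and a dashed line of equal response, leaving out Lce3a and Lce3f with 0 reads in NR and NRRA. Sprr2k (1.19 and 2.88) and Sprr2g (0.90 and 2.21) lie above the line.

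The interaction of RA and restriction was called for Sprr2g and Sprr2k alone, both higher, where 0.786% and 1.46% of all tested genes were called higher and lower, 2.24% in all. With restriction in the presence of RA, NRRA against RA, 3 of the 29 tested members were called higher (Sprr2b, Sprr2g and Sprr3) and 13 lower, where 4.61% and 3.68% of all tested genes were called higher and lower, 8.29% in all. The lower ones were the 5 Lce genes, Sprr1a, Sprr2d, Sprr2e and Sprr2h, and Krt8, Krt13, Krt18 and Krt19. For Sprr2d the value fell under the fold limit without the first RA or the second NRRA library (log2 -0.94 and -0.83). In NR against RA 5 members were called higher (Krt24, Krt75, Krt80, Krt87 and Sprr2b) and 16 lower, where 6.87% and 5.62% of all tested genes were called higher and lower, 12.5% in all. Of these calls, Krt75 and Krt87 were lost without the second RA or either NR library (adjusted p from 0.0525 to 0.193), and Krt8 without the first RA or the first NR library (log2 -0.77 and -0.99). In the contrast used for the choice, NRRA against Veh, 8 of the 29 were called higher and 13 lower, beside 9.91% and 6.02% of all tested genes, 15.9% in all, as a description. The 8 were Krt7, Krt12, Krt20, Sprr1a, Sprr2b, Sprr2e, Sprr2g and Sprr3, of which Sprr1a fell under the fold limit without the second Veh library (log2 0.91).

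Other genes of the cornified envelope were looked at as a list of 24, of which 14 were tested. In RA against Veh 5 of the 14 were called higher (Evpl, Flg, Ivl, Ppl and Tgm1) and 0 lower, beside 4.74% and 2.75% of all tested genes. In NR against Veh 0 were called higher and 5 lower (Crct1, Ivl, Lelp1, Lor and Tchh), beside 5.33% and 2.96%. In NRRA against NR 7 were called higher and 0 lower, beside 4.56% and 4.14% of all tested genes, with a median log2 fold change of 1.02 over the 14 against 0.01 over all tested genes. Flg, encoding filaggrin, was at 0.0495 and 0.0521 CPM in Veh, 1.07 and 1.39 under RA, 0.0964 and 0.0759 under NR, and 3.64 and 3.40 under NRRA, and so, like Sprr3, was highest under the combined treatment. Tgm1, a transglutaminase that cross-links the envelope, was higher in RA than in Veh (log2 1.43, SE 0.21, edgeR adjusted p = 3.95e-06) and higher in NRRA than in NR (log2 2.07, SE 0.22, adjusted p = 1.83e-08). Lor, encoding loricrin, also fell in NR against Veh (log2 -1.29, SE 0.25, edgeR adjusted p = 0.000106). The fall was smaller than in the tested Lce genes, which had a log2 fold change of -4.55 or lower.

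Markers of other cell types were summed in each library. Of the 6 basal keratinocyte markers Krt5, Krt14 and Krt15 were under 0.5 CPM in every library, and the list summed to 15.8 and 16.7 CPM in Veh, 20.5 and 19.9 under RA, 15.5 and 16.1 under NR, and 20.6 and 22.6 under NRRA. The 6 differentiated keratinocyte markers, among them Krt10 and Ivl above and Krt1 at under 0.5 CPM, summed to 32.7 and 32.3 CPM in Veh, 62.7 and 63.3 under RA, 11.2 and 8.96 under NR, and 18.9 and 18.3 under NRRA. Most of this sum was Ivl in Veh and RA, and the markers did not move together. In NRRA against RA, of 5 tested, Flg was called higher (log2 1.49) and Lor and Ivl lower (log2 -1.80 and -3.29). There, 4.61% and 3.68% of all tested genes were called higher and lower. Of 8 trophoblast markers Cdx2, Elf5, Hand1 and Tpbpa were under 0.5 CPM, while Psg17, Eomes and Prl3d1 were called lower in NR against Veh, the list summing to 10.1 and 8.86 CPM in Veh, 12 and 9.99 under RA, 4.87 and 5.09 under NR, and 3.54 and 4.53 under NRRA. Of all tested genes, 5.33% and 2.96% were called higher and lower in NR against Veh. The 7 Leydig and peritubular markers, of which Cyp17a1, Insl3 and Hsd3b1 were under 0.5 CPM, summed to 90.2 and 90.6 CPM in Veh, 70.5 and 71.7 under RA, 516 and 522 under NR, and 889 and 889 under NRRA, nearly all of it Acta2 in NR and NRRA. The fibroblast marker sum above was also higher in NR and NRRA than in Veh and RA. In NR against RA, of 4 tested, Acta2 and Myh11 were called higher and Star lower (log2 -1.25), beside 6.87% and 5.62% of all tested genes. The 7 Sertoli cell markers summed to 39.9 and 36.8 CPM in Veh, 26.0 and 27.4 under RA, 42.8 and 45.8 under NR, and 15.5 and 13.9 under NRRA, with Amh and Rhox8 under 0.5 CPM, and the 5 macrophage markers to between 203 and 288 CPM in every library. The Sertoli markers did not move together. In NRRA against NR, of 5 tested, Cldn11 and Aard were called higher (log2 2.30 and 2.09) and Sox9 lower (log2 -2.34). Beside them, 4.56% and 4.14% of all tested genes were called higher and lower. The cells that held these markers, and the part of any such cells in the changes of the Sprr, Lce and Krt genes, were not tested.

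Genes that act with keratins were counted in the same way, beside 7.49% of all tested genes called in either direction in RA against Veh and 8.29% in NR against Veh. Of 17 tested desmosome and epithelial adhesion genes, 0 were called higher and 1 lower (Pkp1) in RA against Veh, and 1 higher (Cldn3) and 3 lower (Dsc2, Dsp and Pkp1) in NR against Veh. Of 15 other intermediate filament genes, 1 was called higher (Prph) and 2 lower (Nefm and Ina) in RA against Veh, and 1 higher (Nefh) and 2 lower (Nefm and Nefl) in NR against Veh. Nefm, a neurofilament gene, was at 163 and 166 CPM in Veh, 22.0 and 21.5 under RA, 63.6 and 62.4 under NR, and 3.79 and 3.66 under NRRA. Among 21 tested epithelial transcription factors Elf3 and Trp63 were called higher and Ehf, Esrp1, Prdm1 and Zfp750 lower in RA against Veh. Of 9 tested S100 genes from the same chromosome 3 complex, 0 were called in RA against Veh and S100a8 alone, lower, in NR against Veh.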

How the data were processed

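Messenger RNA was sequenced from 8 libraries, 2 for each of Veh, RA, NR and NRRA, and grouped by the sample labels. The authors deposited raw read counts per gene. The submitters' processing notes name STAR 2.6.1c, featureCounts 1.6.4 and mm10; the strand setting is not given in the sources used here. Gene models were GENCODE and promoters RefSeq (both GRCm38). Counts were tested in edgeR 4.0.16 (R 4.3.3) with TMM scaling, filterByExpr by condition, 1 coefficient per condition over all 8 libraries and the quasi-likelihood F test. P-values were adjusted over 20477 genes by Benjamini-Hochberg, and calls needed an adjusted p under 0.05 and a fold of at least 2. CPM used the TMM-scaled totals. SE was taken from the F statistic. Ratios of 1 to 3 pooled reads have exact 95% intervals, and a pooled count of 0 was set to 3. Intervals cover counting error only, and p-values the spread between the 2 libraries of a condition, estimated over all 8 libraries together. The models were tested on simulated data. Alternatives were DESeq2 1.42.0, its size factors, no filter, no fold limit, other detection minimums, a replicate block and leaving out each library. Members and gene lists were chosen with earlier results of these data known. Members were named where called in at least 1 comparison, where used to choose the families (Sprr3, Lce1g), where among the 5 highest per kilobase of exon, or where among the 3 nearest to 10 reads on either side. From each gene list the 2 largest called changes in NRRA against Veh also fell under the rule, with partner keratins, but not all of them are printed. Other list genes and neighbouring genes named here were chosen after their values were seen. The result of the epithelial transcription factor list in NR against Veh is not reported here.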

Additional observations from a re-analysis of the deposited data

Results flagged for a closer look

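The RA response differed between complete and restricted medium, by the interaction term in edgeR with Benjamini-Hochberg adjustment, for Sprr2k (1.68 on the log2 scale, adjusted p = 0.00288), Sprr2g (1.31, adjusted p = 0.00317) and Krt10 (-0.76, adjusted p = 0.0144). RA gave Sprr2k a log2 change of 1.19 in complete and 2.88 in restricted medium, and Sprr2g 0.90 and 2.21, with both NRRA libraries above both NR libraries for each. Krt10 was higher by 0.70 in RA than in Veh and lower by 0.06 on the log2 scale in NRRA than in NR, and its interaction stayed under the fold limit of 2. The Sprr2k call was lost without the second NR library (1.35, adjusted p = 0.0683) and the Sprr2g call without the first Veh library (1.09, adjusted p = 0.0603).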

How the results depend on the processing

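The fits gave 107 calls of a member in a comparison. Of these, 80 held under every alternative that gave a value, 27 were lost under at least 1, and 0 reversed. The calls kept were 107 of 107 with DESeq2's size factors, 105 of 107 without the low-count filter, 87 of 105 in DESeq2 itself and from 97 to 103 of 107 when 1 library was left out. DESeq2 called 2 members lower in NRRA against NR in place of 4, and 2 members higher in NR against RA in place of 5. The latter count ran from 3 to 5 when 1 library was left out, falling to 3 without the second RA or the first NR library. Members with a higher interaction numbered 1 to 3 in place of 2 when 1 library was left out, 1 without the first Veh or the second NR library, and without the fold limit 1 member, Krt10, had a lower interaction in place of 0 (2 members at an unadjusted p under 0.05 in edgeR, and 0 called by DESeq2). The cause was not tested, and leaving out a library leaves 1 in its condition. A replicate block kept 105 of 107 calls, losing Krt7 and Krt75 in RA against Veh (adjusted p = 0.0518 and 0.0555). Over all genes DESeq2 called 622 higher in RA against Veh where edgeR called 970, and for the interaction 100 higher and 168 lower where edgeR called 161 and 298. Correlations of same-numbered deviations between conditions ran from -0.03 to 0.02. The labels do not say whether same-numbered libraries shared a culture, and these correlations cannot show it. The 2 Veh libraries differed most from each other, with a chi-square per gene of 3.93, against 2.12 in RA, 1.58 in NR and 1.73 in NRRA. Precision rests on 2 libraries a condition, and members with few reads have wide intervals.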
